A study of Mus musculus with 9 samples.

Results

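The comparison described here sets transgenic mice that lack both liver X receptors against wild type (WT) mice, across all genes, in corona radiata cells. It uses 6 of the 9 libraries of the study, 3 transgenic and 3 WT. A gene was kept when its RPKM (reads per kilobase of gene length after scaling for depth) reached at least 1 in 3 or more of these 6 libraries, which left 15992 of the 54838 genes listed. The third genotype, the LXR double knockout without the transgene (LXR DKO, 3 libraries), did not enter the fit.

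Total RNA of corona radiata cells, labelled as granulosa, was sequenced from adult mice after PMSG and hCG, which stimulate follicle growth and trigger ovulation. A further term in the treatment label, "J4", is left unexplained there. The WT group carries neither knockout nor transgene. The transgenic group carries the LXR double knockout together with the transgene TG-AMH-LXRb, so the contrast holds the receptor loss and the transgene at once. The labels describe neither the promoter nor the coding sequence of the transgene, nor the deleted part of the receptor genes, and name no strain. All animals received the same stimulation. No label states whether each library is a different animal, so p-values measure the spread between these samples only, which may be technical.

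The liver X receptors LXR alpha (gene Nr1h3) and LXR beta (Nr1h2) are nuclear receptors that pair with a retinoid X receptor, bind oxysterols and switch on genes of cholesterol export and lipid synthesis. Without ligand they are held silent by a corepressor complex. Corona radiata cells are the innermost cumulus cells, granulosa-derived cells that touch the oocyte, deposit a hyaluronan matrix around it at ovulation and make progesterone.

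Between the 2 groups 518 genes were higher in the transgenic libraries, 3.24% of those tested, and 916 were lower, 5.73%, or 8.97% in either direction, by limma with Benjamini-Hochberg adjustment over all 15992 genes and a threshold of 0.05. The median log2 fold change over all genes was 0.02, and 8334 of the 15992 genes had a positive one. At an unadjusted limma p under 0.05, 2196 genes were higher and 2485 lower. List counts at that p, given below, are to be read beside these. Fold changes here are transgenic minus WT on the log2(RPKM + 1) scale, given ± standard error (SE), and understate the change of genes with low values. Of the called genes, 118 rose and 159 fell by at least 1 on the log2 scale. The share called was 6.28% of genes with a mean RPKM under 5 and 14.5% of those over 100. Among protein-coding genes 412 rose and 511 fell of 11556, and among processed pseudogenes 79 rose and 334 fell of 3499.

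**Figure D1:**
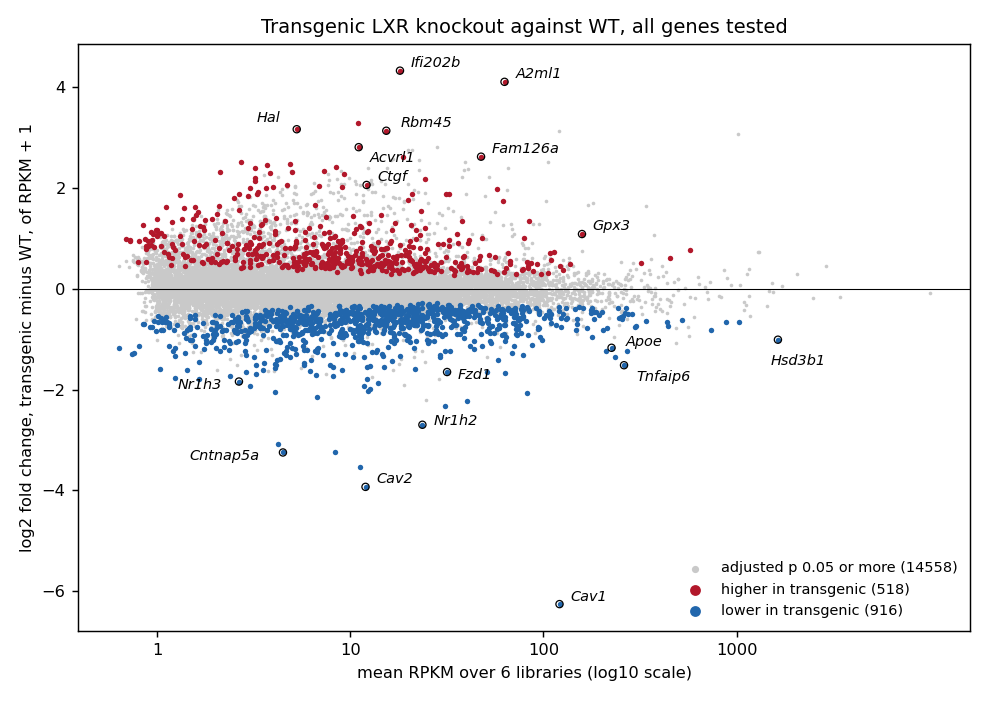
Each point is 1 of 15992 genes, at its mean RPKM over the 6 libraries (x axis, log10 scale) and its log2 fold change of RPKM + 1, transgenic minus WT (y axis). Red points rose and blue points fell at an adjusted p under 0.05 in limma, and grey points did not pass; Cav1 at -6.26 and Ifi202b at 4.33 mark the ends of the called range.

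Library WT 3 stood apart from WT 1 and WT 2. A principal component analysis put WT 1 and WT 2, on its leading axis (56.9% of the variance), at -47.95 and -43.66, WT 3 at 12.66 and the transgenic libraries between 17.92 and 33.71. The median SD of log2 values was 0.168 over WT, 0.0953 over WT 1 and WT 2 alone, and 0.112 over the transgenic libraries. Reads in genes, worked back from the RPKM values, were 29822412 to 44049966 per library, so that 3 reads on a gene with 1 kb of exons were worth 0.0638 to 0.0965 RPKM. Each call was recomputed with 1 library left out at a time. Without WT 3 the counts were 2103 higher and 1742 lower of 15992 genes, which included all 518 and 916 genes above. List counts without WT 3, given below, are to be read beside these. Without 1 of the other 5 libraries they ran from 76 higher and 180 lower (transgenic 1) to 199 higher and 335 lower (WT 1), with 83 and 147 without transgenic 2, 90 and 161 without transgenic 3, and 125 and 239 without WT 2. The calls of 65 higher and 112 lower genes held in all 6 omissions, and these are called stable below. For 320 higher and 525 lower genes the call held in 1 omission only. A call described below as resting on the full set was lost when any 1 of WT 1, WT 2 and transgenic 1, 2 and 3 was left out, and held without WT 3.

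Markers of other cell types differed between these libraries. The mean log2(RPKM + 1) of 28 granulosa markers was 3.46, 3.48 and 3.43 in WT 1 to 3 and 3.29, 3.39 and 3.35 in transgenic 1 to 3. Their summed RPKM was 1131, 1114 and 1002 in WT and 719.8, 824 and 703 in transgenic libraries. All transgenic values were under all WT values on both scales, and no granulosa marker was at 0. Amh, the gene named in the transgene, stood at RPKM values of 0.245, 0.307 and 0.255 in WT 1 to 3 and 0.207, 0.135 and 0.406 in transgenic 1 to 3, under the filter, with overlapping groups. For 16 markers of the secretory oviduct epithelium, led by the oviduct glycoprotein gene Ovgp1, it was 2.53, 2.45 and 4.69 in WT and 4.51, 4.48 and 4.82 in transgenic libraries, and their summed RPKM was 459.7, 408 and 2258 against 1968, 2601 and 2596, with Wnt7a alone at 0, in WT 2 and transgenic 1. Ovgp1 alone stood at RPKM values of 52.2, 109 and 1125 in WT 1 to 3 and 1266, 1857 and 1679 in transgenic 1 to 3. WT 3 lay near the transgenic libraries and apart from WT 1 and WT 2.

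For 23 genes of motile cilia the summed RPKM was 75.6, 63.5 and 610.0 in WT 1 to 3 and 479.7, 205 and 535 in transgenic 1 to 3, and none of them was at 0 in any library. Foxj1, the master regulator of motile cilia, had RPKM values of 2.29, 1.67 and 21.7 in WT 1 to 3 and 19.1, 7.16 and 24.6 in transgenic 1 to 3. Limma called none of the 14 tested oviduct genes and none of the 19 tested cilia genes, although 6 and 5 were higher at an unadjusted p under 0.05, and voom, the count-based form of limma, also called none. Their median log2 fold changes were 1.77 and 1.45, and all tested members had positive ones. Without WT 3 they were 2.67 and 2.26, and 12 oviduct and 19 cilia genes were called higher. The WT 3 library decides these calls.

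Macrophage markers went the other way. The summed RPKM of 17 of them was 595, 643 and 1399 in WT 1 to 3 and 487, 427 and 622 in transgenic 1 to 3, with no marker at 0. These sums overlapped, transgenic 3 lying above WT 1, while the median log2 fold change of the 12 tested was -1.12, or -0.76 without WT 3. Cd68, a lysosomal membrane protein of macrophages, stood at RPKM values of 41.8, 44.0 and 53.8 in WT 1 to 3 and 21.1, 16.3 and 20.3 in transgenic 1 to 3, and its log2 change of -1.23 ± 0.14 (adjusted p = 0.00727) was stable. Tyrobp, a signalling adaptor of myeloid cells, fell by 1.17 ± 0.17 (adjusted p = 0.0165); its call was lost without WT 2 or any 1 transgenic library (adjusted p up to 0.0734). Of the 12 tested macrophage genes these 2 were called lower (16.7%, beside 5.73% of all genes). Without WT 3, 8 macrophage genes were called lower, beside 1742 of all 15992 genes. In bulk RNA, fewer cells of a type and less RNA per cell cannot be told apart.

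Of 15 lymphocyte markers 4 passed the filter and 5, Cd3e, Cd3d, Cd8a, Nkg7 and Gzma, were at 0 in 1 library each; their summed RPKM was 32.4, 72.3 and 38.1 in WT and 26.7, 28.1 and 24.4 in transgenic libraries. Trac, the T cell receptor alpha constant gene, had RPKM values of 6.27, 6.24 and 4.96 in WT 1 to 3 and 1.25, 1.34 and 1.10 in transgenic 1 to 3 and fell by 1.61 ± 0.12 (adjusted p = 0.00210), a stable call. Ms4a1, which encodes the B cell protein CD20, fell by 1.23 ± 0.28, but lost its call without WT 1 or any 1 transgenic library (adjusted p up to 0.143). Trac and Ms4a1 were the only calls of the 4 tested lymphocyte markers (50% lower, beside 5.73% of all genes). Of the endothelial markers 3 of 14 passed the filter, with Tek, Emcn, Erg and Plvap at 0 in 1 or 2 libraries, and their summed RPKM was 5.19, 4.43 and 17.0 in WT and 12.5, 15.2 and 20.4 in transgenic libraries. Esam, an endothelial adhesion molecule, rose by 1.38 ± 0.23 on the full set of libraries (adjusted p up to 0.0907 without 1 library). It was the only call of the 3 tested (33.3% higher, beside 3.24% of all genes). Pecam1 stood at RPKM values of 1.56, 1.74 and 0.928 in WT 1 to 3 and 1.45, 1.596 and 1.38 in transgenic 1 to 3 and did not pass (adjusted p = 0.846). The 12 smooth muscle genes, none at 0, had sums of 93.6, 83.6 and 207 in WT and 179.9, 151 and 92.6 in transgenic libraries. Of the 10 tested, 9 had positive log2 fold changes, and the median was 0.43 (0.96 without WT 3, with 3 called higher and 1 lower). Cald1, which encodes caldesmon, was the only call with 6 libraries (10% lower, beside 5.73% of all genes), against the direction of the other members. It fell by 1.05 ± 0.13 and lost its call only without transgenic 1 (adjusted p = 0.0527), and Acta2 did not pass at 1.21 ± 0.88 (adjusted p = 0.394).

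RNA of 2 further cell types was by far highest in 1 WT library each. The summed RPKM of 24 oocyte genes was 1307, 5.04 and 7.29 in WT 1 to 3 and 29.99, 97.5 and 58.6 in transgenic 1 to 3, and Gdf9, the oocyte growth factor, stood at RPKM values of 126, 0.505 and 0.701 in WT 1 to 3 and 3.69, 10.9 and 6.89 in transgenic 1 to 3. Of these genes 9 passed the filter; Zp1 was at 0 in WT 2 and WT 3, Figla in WT 2, WT 3, transgenic 1 and transgenic 2, and Sohlh1 in WT 1 and transgenic 1. The summed RPKM of 9 red cell genes was 111, 129.6 and 9900.0 in WT and 168, 289 and 284 in transgenic libraries, and Hbb-bs, a beta globin, stood at RPKM values of 16.5, 34.6 and 2663 in WT 1 to 3 and 47.9, 81.1 and 82.4 in transgenic 1 to 3. WT 1 was therefore highest in oocyte RNA and WT 3 in red cell RNA. Every transgenic library had an oocyte sum above those of WT 2 and WT 3 and a red cell sum above those of WT 1 and WT 2. Of the red cell genes 6 passed the filter; 2 of the 9 were at 0 in WT 1, 1 in WT 2 and none in the other libraries. No oocyte or red cell gene passed in limma, none passed at an unadjusted p under 0.05 and voom called none. These oocyte results depend on WT 1. Without WT 1 the log2 fold changes of the oocyte genes Gdf9 and H1foo were 2.25 and 3.58. Their lowest values with 1 library left out were -0.95 and -0.38. Each was called in 1 omission only, which was not that of WT 3. Without WT 3, 4 red cell genes were called higher and the list's median went from -0.74 to 1.30. Summed RPKM of 10 neutrophil markers was 10.1, 18.0 and 101 in WT and 199, 207 and 243 in transgenic libraries, of 12 theca and stroma markers 11.6, 12.7 and 22.1 and 31.4, 23.3 and 34.9, and of 11 markers of surface epithelium 382, 272 and 817 and 463, 519 and 609. Of these 4, 6 and 9 passed the filter. The mean log2(RPKM + 1) of the neutrophil markers was 0.5499, 0.7079 and 1.389 in WT 1 to 3. In transgenic 1 to 3 it was 1.503, 1.339 and 1.485. On that scale the groups overlapped, transgenic 2 lying under WT 3, although their sums did not. Hhip, a theca marker, was at 0 in all 6 libraries, 6 neutrophil genes including S100a8 (transgenic 2) and S100a9 (WT 2) were at 0 in at least 1, and so were Insl3, Tcf21 and Muc16. No tested member of these 3 lists passed in limma or voom, with 2, 1 and 2 higher at an unadjusted p under 0.05. What part these other cell types have in the differences described below was not tested, beyond the values given beside them.

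**Figure D2:**
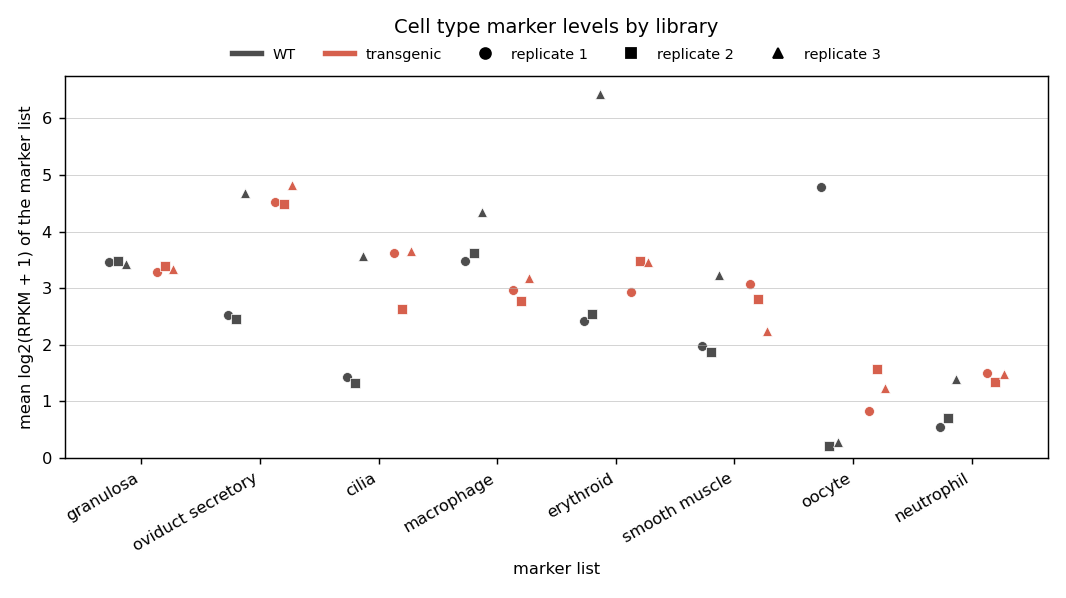
Mean log2(RPKM + 1) of 8 marker lists (y axis) in each of the 3 WT (grey) and 3 transgenic (red) libraries, with the marker shape giving the replicate number. Granulosa markers span 3.29 to 3.48, WT 3 lies beside the transgenic libraries for oviduct secretory and cilia markers, and oocyte RNA is highest in WT 1.

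The targeted receptor genes were examined first. Nr1h2 (ENSMUSG00000060601, chr7:44549616-44553951, minus strand, mm10 with GENCODE M21 gene models) had RPKM values of 45.7, 39.7 and 39.7 in WT 1 to 3 and 4.83, 5.28 and 6.70 in transgenic 1 to 3. Nr1h3 (ENSMUSG00000002108, chr2:91184061-91202834, minus strand) had 3.50, 5.72 and 4.95 in WT 1 to 3 and 0.395, 0.819 and 0.539 in transgenic 1 to 3. In both genes all 3 transgenic libraries lay far below all 3 WT libraries, the order that the genotype labels give. Nr1h2 fell by 2.70 ± 0.13 (adjusted p = 0.000453) and Nr1h3 fell by 1.84 ± 0.19 (adjusted p = 0.00563), and both calls were stable. In the LXR DKO libraries, whose comparison would use the same WT libraries, Nr1h2 stood at 3.57, 2.85 and 3.03 RPKM and Nr1h3 at 1.08, 0.713 and 0.933. The transgenic values of Nr1h2 thus exceeded those 3 values and stayed under the lowest WT value. The parts of the genes that the deletions remove are not given, so reads from exons that remain are no measure of functional receptor.

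Of 20 tested genes for LXR, RXR and their coregulators, 4 were lower (20%, beside 5.73% of all genes) and none higher, with 2 higher at an unadjusted p under 0.05 and none by voom. The list's median was 0.10, and -0.02 without WT 3. Nr1h2 and Nr1h3 were among them, and the other two were corepressor subunits. Gps2, a subunit of the NCoR and SMRT corepressor complex, had RPKM values of 27.5, 25.1 and 26.8 in WT 1 to 3 and 10.5, 9.45 and 9.52 in transgenic 1 to 3. Its transgenic values were all under the WT values, and its log2 change of -1.34 ± 0.080 (adjusted p = 0.00100) was stable. Ncor1, the scaffold of that complex, fell by 0.51 ± 0.092 on the full set (adjusted p up to 0.106 without 1 library). The retinoid X receptor genes Rxra and Rxrb did not pass, at 0.08 ± 0.13 and -0.14 ± 0.063, and Rxrg was under the filter.

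The widest difference of all was at the caveolins. Cav1 and Cav2 encode membrane proteins that assemble together into caveolae, small flask-shaped pits of the plasma membrane. The 2 genes lie side by side on the plus strand of chromosome 6, Cav2 (ENSMUSG00000000058) at chr6:17281185-17289115 and Cav1 (ENSMUSG00000007655) at chr6:17306335-17341452. The 150 bases before the start of each gene, from the RefSeq promoter table (GRCm38.p6, plus strand, chr6:17281035-17281184 for Cav2 and chr6:17306185-17306334 for the first promoter of Cav1), are shown because both genes fell together; capitals mark the AP-1 motif TGACTCA, which was found before Cav2 and not before Cav1.
Cav2: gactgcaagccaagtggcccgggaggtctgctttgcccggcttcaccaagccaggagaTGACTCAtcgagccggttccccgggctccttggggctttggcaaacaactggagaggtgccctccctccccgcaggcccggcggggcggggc
Cav1: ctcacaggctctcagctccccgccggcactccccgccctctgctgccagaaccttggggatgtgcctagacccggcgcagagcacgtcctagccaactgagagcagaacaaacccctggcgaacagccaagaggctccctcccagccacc

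Cav1 had RPKM values of 245, 267 and 205 in WT 1 to 3 and 0.739, 0.934 and 7.97 in transgenic 1 to 3. Cav2 had 21.8, 27.7 and 20.8 in WT 1 to 3 and 0.537, 0.482 and 0.751 in transgenic 1 to 3. The transgenic libraries were low in both genes without overlap, with transgenic 3 the highest of them for both. Cav1 fell by 6.26 ± 0.61 on the log2 scale (adjusted p = 0.00490) and lay at -7.02 to -5.84 with 1 library left out. Cav2 fell by 3.93 ± 0.14 (adjusted p = 0.000327). In LXR DKO the values were 256, 227 and 266 RPKM for Cav1 and 14.8, 17.9 and 26.0 for Cav2, beside WT rather than transgenic values; the contrast of transgenic and LXR DKO was not fitted here.

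Partner genes of caveolae did not pass the test with all 6 libraries. Cavin1, the main coat protein, had RPKM values of 17.1, 24.1 and 28.7 in WT 1 to 3 and 26.7, 17.1 and 24.7 in transgenic 1 to 3 and did not pass (adjusted p = 0.957). Cavin3 had 14.6, 13.0 and 19.0 in WT 1 to 3 and 15.8, 13.4 and 14.3 in transgenic 1 to 3 and did not pass either (adjusted p = 0.739). Of the 18 tested genes for caveolae and cell adhesion 2 fell, both of them caveolins (11.1% lower, beside 5.73% of all genes; 4 rose and 3 fell without WT 3), and 1 rose, the beta catenin gene Ctnnb1, at 0.58 ± 0.081 (adjusted p = 0.0141; up to 0.0704 without 1 transgenic library, where the call was lost). From 2 Mb before Cav2 to 2 Mb after Cav1, 16 genes other than Cav1 and Cav2 were tested, of which 2 rose and 3 fell, 31.2% called beside 8.97% of all genes. These neighbours were looked up after the values of Cav1 were seen. Tes, a focal adhesion protein gene upstream of Cav2, fell by 0.71 ± 0.10 and lost its call without WT 2, transgenic 1 or transgenic 3 (adjusted p up to 0.0717). St7 and the chloride channel gene Cftr rose by 0.69 ± 0.13 and 1.88 ± 0.35, both on the full set of libraries (adjusted p reaching 0.106 to 0.112). Cftr stood at RPKM values of 0.301, 0.362 and 2.23 in WT 1 to 3. WT 3 was the highest of these, as it was for the oviduct markers, whose part was not tested. Lsm8 fell by 0.76 ± 0.10 and lost its call without WT 2, transgenic 2 or transgenic 3 (adjusted p up to 0.0642). The noncoding RNA Gm20186 fell by 1.14 ± 0.13, a stable call. Met and Capza2, the nearest tested genes after Cav1, had log2 fold changes of -0.09 and -0.18 and did not pass. In LXR DKO, St7 stood at 3.19, 3.08 and 2.48 RPKM, Lsm8 at 3.17, 3.61 and 3.52 and Gm20186 at 0.204, 0.370 and 0.193. Their transgenic means were 2.74, 3.60 and 0.345 and their WT means 1.33, 6.76 and 1.97. Tes, at 63.2, 61.8 and 53.1 in LXR DKO, lay between its transgenic and WT values. Cftr, at 1.29, 2.20 and 2.34, lay under its transgenic values.

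**Figure D3:**
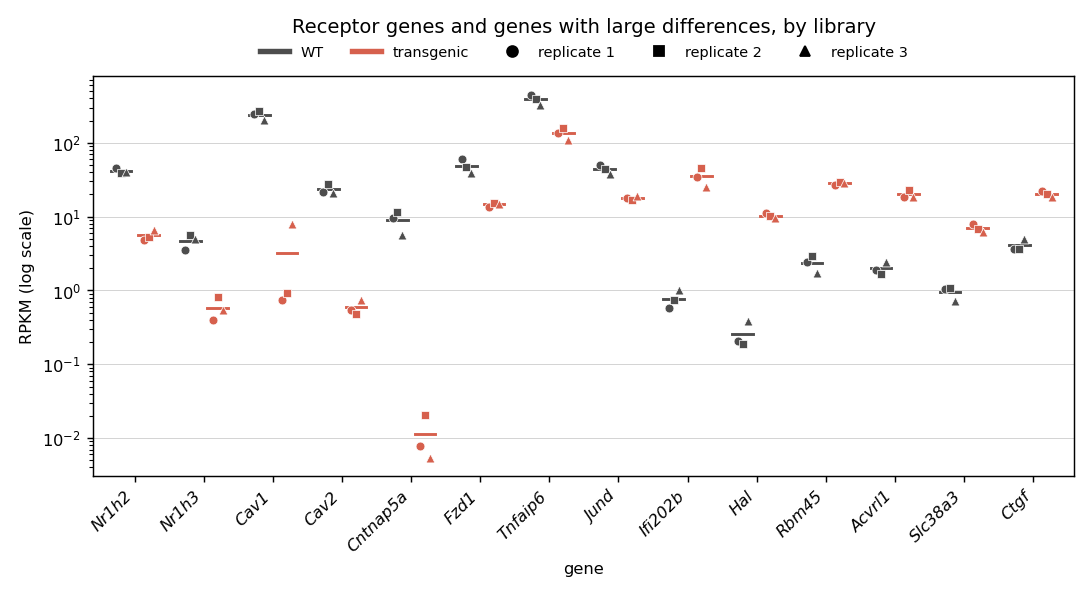
RPKM (log scale) of 14 genes in each WT (grey) and transgenic (red) library, with horizontal lines at the group means and the marker shape giving the replicate number. The groups do not overlap in any of these genes, and the transgenic values of Cntnap5a, under 0.1 RPKM, are the lowest drawn.

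Several genes rose from near absence in WT. Ifi202b (ENSMUSG00000026535, chr1:173962568-173982744, minus strand), an interferon-inducible gene of the p200 family, had RPKM values of 0.576, 0.732 and 1.00 in WT 1 to 3 and 34.7, 46.0 and 25.5 in transgenic 1 to 3, a rise by 4.33 ± 0.22 (adjusted p = 0.000484). Hal (ENSMUSG00000020017, chromosome 10), which encodes histidine ammonia-lyase, the first enzyme of histidine breakdown, had 0.205, 0.190 and 0.383 in WT 1 to 3 and 11.1, 10.1 and 9.66 in transgenic 1 to 3, a rise by 3.17 ± 0.11 (adjusted p = 0.000327). Rbm45 (ENSMUSG00000042369, chromosome 2), an RNA-binding protein gene, had 2.44, 2.92 and 1.75 in WT 1 to 3 and 26.8, 29.3 and 29.0 in transgenic 1 to 3, a rise by 3.14 ± 0.14. All transgenic libraries were high and all WT libraries low in these genes, and the 3 calls were stable.

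Acvrl1 (ENSMUSG00000000530, chr15:101128522-101145336, plus strand) encodes ALK1, a type I receptor for BMP9 and BMP10, and had RPKM values of 1.87, 1.69 and 2.47 in WT 1 to 3 and 18.7, 22.9 and 18.7 in transgenic 1 to 3. It rose by 2.81 ± 0.14 (adjusted p = 0.000453). Fcrlb, an Fc receptor-like gene, had 1.22, 1.85 and 0.679 in WT 1 to 3 and 18.7, 24.8 and 18.5 in transgenic 1 to 3 and rose by 3.29 ± 0.22. Paip1, a partner of the poly(A)-binding protein in translation, had 5.01, 4.99 and 3.67 in WT 1 to 3 and 34.2, 34.2 and 30.4 in transgenic 1 to 3 and rose by 2.62 ± 0.12. Fam126a, whose protein hyccin belongs to a complex that makes phosphatidylinositol phosphate at the plasma membrane, rose by 2.62 ± 0.23, from 12.6 ± 3.03 (SD, n = 3) to 82.6 ± 19.1 RPKM. These 4 calls were stable, with no overlap between the groups.

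Itln1, the lectin intelectin, was at RPKM values of 0.0199, 0 and 0.0745 in WT 1 to 3 and 3.90, 3.10 and 9.22 in transgenic 1 to 3 and rose by 2.52 ± 0.33, and lost its call without WT 2 only (adjusted p = 0.0508). A2ml1, an alpha-2-macroglobulin-like protease inhibitor gene, had RPKM values of 1.44, 2.23 and 32.6 in WT 1 to 3 and 75.6, 145 and 121 in transgenic 1 to 3. In A2ml1, WT 3 lay between the other WT libraries and the transgenic ones, as it did for the oviduct markers, whose part in this rise was not tested. Its rise by 4.11 ± 0.97 rested on the full set (adjusted p = 0.0499; up to 0.155 without 1 library), and was 5.30 (adjusted p = 0.000361) without WT 3. The remaining 3 of the 12 largest rises were the processed transcript AI506816, at 2.43, and the processed pseudogenes Gm14094 and Gm44954, at 2.47 and 2.46. Reads of pseudogenes can come from their parent genes, so the values of the 2 pseudogenes are uncertain.

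Among the largest falls besides the caveolins were genes that were nearly silent in the transgenic libraries. Cntnap5a (ENSMUSG00000070695, chr1:115684756-116587323, plus strand), a contactin-associated neurexin family gene, had RPKM values of 9.59, 11.6 and 5.68 in WT 1 to 3 and 0.00789, 0.0206 and 0.00539 in transgenic 1 to 3. The long noncoding RNA Gm34093 on chromosome 15 had 30.7, 20.4 and 13.9 in WT 1 to 3 and 1.28, 0.445 and 0.990 in transgenic 1 to 3. The transcripts 1700023H06Rik and 2610507I01Rik, both of no known product, were lower, at -3.25 ± 0.23 and -3.08 ± 0.12. Cntnap5a fell by 3.25 ± 0.23 (adjusted p = 0.00173) and Gm34093 fell by 3.53 ± 0.30 (adjusted p = 0.00306). The calls of these 4 genes were stable.

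Cercam, an adhesion molecule first described in brain endothelium, had RPKM values of 61.0, 53.3 and 42.1 in WT 1 to 3 and 9.83, 9.78 and 8.93 in transgenic 1 to 3 and fell by 2.32 ± 0.14. Smarcd1, which encodes the BAF60a subunit of SWI/SNF chromatin remodelling complexes, had 7.22, 7.998 and 6.35 in WT 1 to 3 and 1.13, 0.911 and 0.878 in transgenic 1 to 3 and fell by 2.05 ± 0.12. Cd52, a small surface glycoprotein best known from leukocytes, had 152, 109 and 137 in WT 1 to 3 and 25.0, 42.8 and 26.4 in transgenic 1 to 3 and fell by 2.07 ± 0.23 (adjusted p = 0.00674). The groups did not overlap in these genes and the calls were stable. The pseudogene Gm8031 also fell, at -2.16 ± 0.14. Ctsk, the collagen-cutting protease cathepsin K, had RPKM values of 87.1, 92.2 and 25.4 in WT 1 to 3 and 14.7, 8.23 and 13.4 in transgenic 1 to 3, with WT 3 much nearer to the transgenic libraries than WT 1 and WT 2; its log2 change of -2.23 ± 0.50 rested on the full set (adjusted p up to 0.145) and was -2.82 without WT 3.

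LXR target genes are those that the receptors are known to switch on, mostly for sterol export, lipoproteins and fatty acid synthesis. Of 23 tested, out of 31 listed, 7 were lower (30.4%) and 1 was higher (4.35%), beside 5.73% lower and 3.24% higher of all genes, and the list's median log2 fold change was 0.10 against 0.02 over all genes. Its median was -0.07 without WT 3, where 7 fell and 2 rose. The list includes Nr1h3 itself, which the knockout targets.

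Lpl, the lipase that releases fatty acids from lipoproteins, had RPKM values of 20.4, 18.7 and 13.3 in WT 1 to 3 and 6.48, 5.63 and 6.24 in transgenic 1 to 3. It fell by 1.36 ± 0.16 (adjusted p = 0.00895) and lost its call only without transgenic 2 (adjusted p = 0.0523). Abcg1, an exporter of cholesterol to HDL, had 2.79, 2.88 and 4.68 in WT 1 to 3 and 0.732, 0.894 and 1.30 in transgenic 1 to 3 and fell by 1.16 ± 0.20 (adjusted p = 0.0234). Apoe, an apolipoprotein of lipid transport, had 246, 276 and 424 in WT 1 to 3 and 125, 145 and 136 in transgenic 1 to 3 and fell by 1.17 ± 0.20 (adjusted p = 0.0238). Abcg1 and Apoe, both also made by macrophages, lost their calls without WT 2 or any 1 transgenic library (adjusted p reaching 0.0939 to 0.0949). In both genes WT 3 was the highest library, as it was for the macrophage markers; the part of macrophage RNA was not tested. Without WT 3 their log2 fold changes were -0.97 and -0.94.

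Srebf1, the transcription factor of fatty acid synthesis, had RPKM values of 30.6, 31.2 and 27.7 in WT 1 to 3 and 20.6, 21.3 and 21.2 in transgenic 1 to 3 and fell by 0.48 ± 0.074 (adjusted p = 0.0185). Scd2, a stearoyl-CoA desaturase, fell by 0.76 ± 0.17 from 378 ± 83.7 (SD, n = 3) to 219.5 ± 13.1 RPKM. Rnf145, a ubiquitin ligase that acts on sterol sensing, fell by 0.58 ± 0.12. The groups did not overlap in these 3 genes, and their calls rested on the full set of libraries (adjusted p reaching 0.0832 to 0.152 without 1 library). Tgm2, the crosslinking enzyme transglutaminase 2, went up, with RPKM values of 6.24, 5.18 and 15.7 in WT 1 to 3 and 29.0, 23.6 and 39.2 in transgenic 1 to 3 and a rise by 1.77 ± 0.39 (adjusted p = 0.0428; up to 0.145 without 1 library other than WT 3). In Tgm2, WT 3 was the highest WT library, as it was for the oviduct markers, whose part was not tested.

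The sterol exporter gene Abca1, the best known LXR target, had RPKM values of 15.4, 17.3 and 8.81 in WT 1 to 3 and 13.8, 16.3 and 18.8 in transgenic 1 to 3. The groups overlapped, and its log2 fold change of 0.26 ± 0.25 did not pass (adjusted p = 0.515). Mylip, which encodes the ubiquitin ligase IDOL, had 3.09, 4.71 and 5.29 in WT 1 to 3 and 1.55, 2.04 and 2.49 in transgenic 1 to 3, all transgenic values being under the WT values; at -0.81 ± 0.20 it did not pass either (adjusted p = 0.0554). Fasn and Scd1, further lipid synthesis targets, had 0.61 ± 0.23 and 0.34 ± 0.22 and did not pass, and Abcg5, Abcg8 and Cyp7a1 were under the filter. None of 6 tested genes for making or clearing oxysterols, the ligands of LXR, passed in limma or voom, with 1 higher at an unadjusted p under 0.05.

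**Figure D4:**
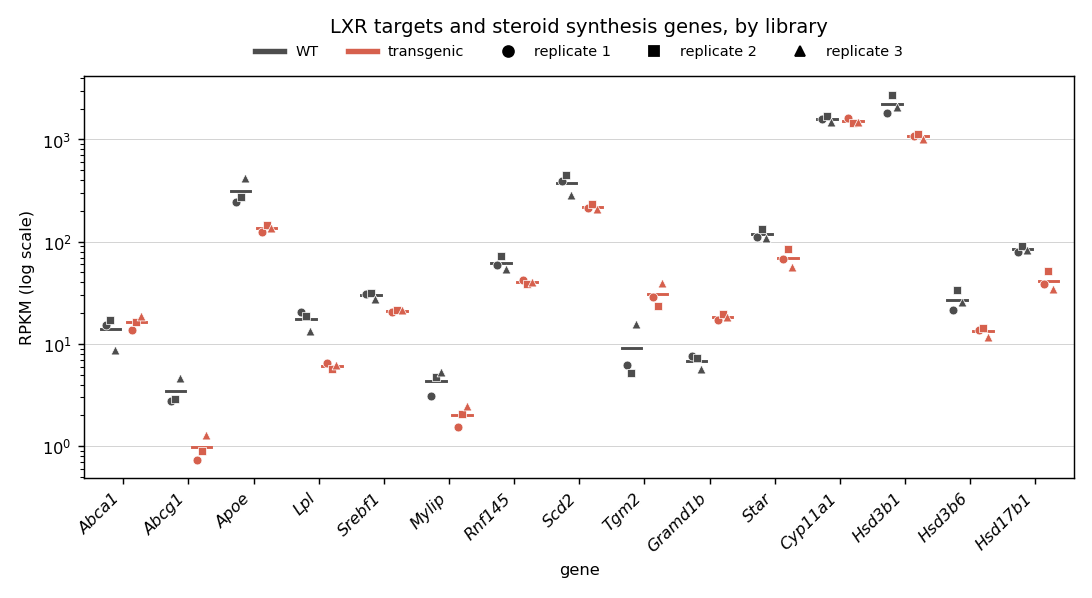
RPKM (log scale) of 10 LXR target and sterol transport genes and 5 steroid synthesis genes in each WT (grey) and transgenic (red) library, with lines at the group means. The transgenic values lie under all WT values for Abcg1, Apoe, Lpl and Srebf1, overlap them for Abca1 and Cyp11a1, and lie over them for Tgm2 and Gramd1b.

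Genes of cholesterol synthesis, which are driven mainly by SREBP2, were called in 4.17%, beside 8.97% of all genes. Of 24 tested 1 rose and none fell (2 and 1 without WT 3), with a median of -0.01; 2 were lower at an unadjusted p under 0.05 and none by voom. The gene that rose was Nsdhl, a sterol dehydrogenase, at 0.50 ± 0.12 (adjusted p = 0.0499; up to 0.159 without 1 library other than WT 3). Of the 22 genes of sterol uptake and transport, 2 rose and none fell (1 at an unadjusted p under 0.05, none by voom), with a median of -0.03. That is 9.09% called, near the 8.97% of all genes, and without WT 3 the counts were 3 and 3. Gramd1b, which carries cholesterol from the plasma membrane to the endoplasmic reticulum, had RPKM values of 7.56, 7.31 and 5.69 in WT 1 to 3 and 17.0, 19.6 and 18.3 in transgenic 1 to 3. All its transgenic values were above the WT values, and its rise by 1.30 ± 0.12 (adjusted p = 0.00404) was stable. In LXR DKO it stood at 7.21, 9.93 and 8.42 RPKM. Osbpl1a, an oxysterol-binding protein homologue, rose by 0.69 ± 0.14 on the full set (adjusted p up to 0.120). The HDL receptor gene Scarb1 had -0.15 ± 0.19 and did not pass.

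Steroid synthesis genes fell in part. Of 16 tested, 4 fell and none rose, 25.0% lower beside 5.73% of all genes, with a median of -0.10 (-0.23 without WT 3); 2 were higher at an unadjusted p under 0.05 and none by voom. Star, whose protein delivers cholesterol to the inner mitochondrial membrane, had RPKM values of 112, 134 and 108 in WT 1 to 3 and 68.0, 85.0 and 56.0 in transgenic 1 to 3 and fell by 0.77 ± 0.17 (adjusted p = 0.0405). Hsd3b1, which makes progesterone from pregnenolone and was among the most abundant genes, had 1801, 2739 and 2064 in WT 1 to 3 and 1079.7, 1129.6 and 1018 in transgenic 1 to 3 and fell by 1.01 ± 0.18 (adjusted p = 0.0244). Its relative Hsd3b6 had 21.5, 33.7 and 25.6 in WT 1 to 3 and 13.7, 14.3 and 11.8 in transgenic 1 to 3 and fell by 0.95 ± 0.17. The transgenic libraries were lower without overlap in each. With 1 library left out, adjusted p reached 0.0966 to 0.132 in these genes, and the libraries concerned are given next. Hsd3b1 and Hsd3b6 are close paralogs, so their reads may be shared.

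Hsd17b1, which converts estrone to estradiol, had RPKM values of 79.8, 91.2 and 83.0 in WT 1 to 3 and 38.8, 51.3 and 34.1 in transgenic 1 to 3 and fell by 1.03 ± 0.15 (adjusted p = 0.0165). It lost its call without WT 2, transgenic 1 or transgenic 3, and Hsd3b1 and Hsd3b6 lost theirs without WT 2 or any 1 transgenic library, while Star rested on the full set (adjusted p reaching 0.0740 to 0.132 over the 4 genes). Cyp11a1, the side-chain cleavage enzyme that starts steroid synthesis, had RPKM values of 1603, 1683 and 1489 in WT 1 to 3 and 1608, 1463 and 1470.2 in transgenic 1 to 3. The groups overlapped, and it did not pass at -0.07 ± 0.12 (adjusted p = 0.710). Akr1c18, which breaks progesterone down, had 2534, 2763 and 2079 in WT 1 to 3 and 3340.4, 3648 and 3058 in transgenic 1 to 3 and did not pass (adjusted p = 0.137). The aromatase gene Cyp19a1 was under the filter at RPKM values of 1.19, 0.567 and 0.470 in WT 1 to 3 and 0.243, 0.228 and 0.182 in transgenic 1 to 3.

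Among 20 genes of gonadotropin response and luteinisation, 1 rose and 3 fell, 20% called beside 8.97% of all genes, with a median of -0.18. Without WT 3, 1 rose and 10 fell and the median was -0.39. Ptgfr, the receptor of the luteolytic prostaglandin F2 alpha, had RPKM values of 2.74, 3.39 and 1.93 in WT 1 to 3 and 6.53, 6.09 and 5.55 in transgenic 1 to 3 and rose by 0.95 ± 0.16. Prlr, the prolactin receptor gene, had 13.5, 14.6 and 10.6 in WT 1 to 3 and 7.76, 5.75 and 7.34 in transgenic 1 to 3 and fell by 0.80 ± 0.15. The secreted WNT binder Sfrp4 and the coactivator gene Cited1 were lower, at -0.38 ± 0.089 and -0.80 ± 0.15. The groups did not overlap in these genes. Prlr, Sfrp4 and Cited1 rested on the full set, and Ptgfr lost its call without WT 1 or any 1 transgenic library (adjusted p reaching 0.0948 to 0.146). The gonadotropin receptor genes Lhcgr and Fshr did not pass, at -0.51 ± 0.21 and 0.19 ± 0.16, and the progesterone receptor gene Pgr was under the filter.

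The matrix that cumulus cells lay down at ovulation is built from hyaluronan, made by HAS2, and stabilised by TSG-6 (Tnfaip6), pentraxin 3 (Ptx3) and versican (Vcan). Of the 18 matrix genes listed 9 passed the filter, of which 3 fell and 1 rose, 44.4% called beside 8.97% of all genes, with a median of -0.37 (-0.54 without WT 3). Tnfaip6 (ENSMUSG00000053475, chr2:52038009-52056686, plus strand) had RPKM values of 449.9, 391 and 324 in WT 1 to 3 and 136, 158 and 111 in transgenic 1 to 3. Every transgenic value was under every WT value, and its log2 change of -1.52 ± 0.17 (adjusted p = 0.00776) was stable. Ptx3 had 10.8, 15.3 and 10.1 in WT 1 to 3 and 5.29, 7.46 and 4.53 in transgenic 1 to 3 and fell by 0.95 ± 0.21 (adjusted p = 0.0421; up to 0.138 without 1 library other than WT 3).

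Hyal2, a hyaluronidase, fell by 0.49 ± 0.088, and the hyaluronan receptor gene Cd44 rose by 0.48 ± 0.10, from 3.73 ± 0.273 (SD, n = 3) to 5.59 ± 0.527 RPKM. The calls of Ptx3, Hyal2 and Cd44 rested on the full set of libraries (adjusted p reaching 0.0940 to 0.145 without 1 library). Has2 itself had RPKM values of 1.16, 2.79 and 1.36 in WT 1 to 3 and 0.504, 0.706 and 0.563 in transgenic 1 to 3, all transgenic values under the WT values, and did not pass at -0.76 ± 0.23 (adjusted p = 0.0868). Vcan had 40.5, 49.8 and 19.5 in WT 1 to 3 and 27.8, 26.4 and 24.4 in transgenic 1 to 3 and overlapped between the groups (adjusted p = 0.475).

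Proteases that open the follicle and their inhibitors moved in both directions, 1 up and 3 down of 20, 20% called beside 8.97% of all genes, and 3 up and 4 down without WT 3. Adamts1, a protease that cuts versican, had RPKM values of 15.2, 13.0 and 11.4 in WT 1 to 3 and 34.2, 27.7 and 30.6 in transgenic 1 to 3 and rose by 1.17 ± 0.13 (adjusted p = 0.00663). Serpine2, an inhibitor of thrombin and plasminogen activators, had 139.7, 134 and 124 in WT 1 to 3 and 68.2, 70.2 and 56.4 in transgenic 1 to 3 and fell by 1.02 ± 0.11 (adjusted p = 0.00563). Both calls were stable and the groups did not overlap. The membrane protease gene Mmp14 and the urokinase receptor gene Plaur were lower, at -0.80 ± 0.13 and -0.59 ± 0.11, both on the full set (adjusted p reaching 0.0847 to 0.101).

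The EGF-like and prostaglandin signals of ovulation gave 3 higher and 2 lower genes of 26, 19.2% called beside 8.97% of all genes, Ptgfr among the former. Without WT 3 there were 6 and 2. Erbb2 and Erbb3, which pair as receptors of neuregulins, stood at RPKM values of 8.54, 8.16 and 9.12 in WT 1 to 3 and 12.6, 13.7 and 14.7 in transgenic 1 to 3 and of 2.28, 1.99 and 2.22 in WT 1 to 3 and 4.41, 4.37 and 5.43 in transgenic 1 to 3. They rose by 0.61 ± 0.090 and 0.85 ± 0.11. Btc, the EGF-like ligand betacellulin, had 13.1, 12.9 and 9.56 in WT 1 to 3 and 5.89, 6.95 and 4.28 in transgenic 1 to 3 and fell by 0.95 ± 0.19. Dusp6, the ERK phosphatase that ERK itself induces, had 151, 162 and 124 in WT 1 to 3 and 80.4, 101 and 80.9 in transgenic 1 to 3 and fell by 0.72 ± 0.14. Erbb3 lost its call without WT 2 or any 1 transgenic library, and the other three rested on the full set (adjusted p reaching 0.0549 to 0.113). Ptgs2, the inducible cyclooxygenase, had RPKM values of 125, 161 and 71.9 in WT 1 to 3 and 94.1, 129 and 79.9 in transgenic 1 to 3, overlapped and did not pass (adjusted p = 0.715). The ligand gene Areg was under the filter.

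Of 23 tested granulosa identity genes 5 fell and 1 rose, 21.7% lower beside 5.73% of all genes, with a median of -0.31; the median was -0.38 without WT 3, where 11 were lower. The falls included activin and inhibin genes. Inha, the inhibin alpha subunit, had RPKM values of 307, 274 and 305 in WT 1 to 3 and 200.1, 208 and 179.9 in transgenic 1 to 3 and fell by 0.59 ± 0.094. Inhba, the activin beta A subunit, had 171, 147 and 144 in WT 1 to 3 and 76.6, 114 and 83.4 in transgenic 1 to 3 and fell by 0.76 ± 0.16. Fst, the activin binder follistatin, had 142, 128 and 113 in WT 1 to 3 and 66.0, 76.0 and 54.7 in transgenic 1 to 3 and fell by 0.96 ± 0.14. The groups did not overlap in these 3 genes. Fst and Inhba lost their calls without WT 1, WT 2, transgenic 1 or transgenic 3, and Inha without WT 1 or any 1 transgenic library (adjusted p reaching 0.0725 to 0.136).

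The homeobox gene Irx3 fell by 0.88 ± 0.14 on the full set (adjusted p up to 0.0721), and Hsd17b1, given above, is also on this list. Foxl2, the transcription factor that defines granulosa cells, had RPKM values of 7.14, 6.63 and 4.82 in WT 1 to 3 and 3.53, 3.60 and 4.40 in transgenic 1 to 3 and did not pass (adjusted p = 0.0739), and neither did Nr5a1, at 0.04 ± 0.12. The gene that rose was Slc38a3, an amino acid transporter that cumulus cells use to supply the oocyte. Its RPKM was 1.06, 1.08 and 0.721 in WT 1 to 3 and 8.04, 6.75 and 6.17 in transgenic 1 to 3, and the rise by 2.03 ± 0.14 (adjusted p = 0.00139) was stable.

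In the TGF-beta and BMP list 1 gene rose and 1 fell of 26, 7.69% called, near the 8.97% of all genes; without WT 3, 4 rose and 3 fell. The receptor gene Acvrl1, described above, rose. Id1, a direct target of BMP signalling, had RPKM values of 57.1, 54.8 and 62.1 in WT 1 to 3 and 24.2, 26.0 and 26.9 in transgenic 1 to 3 and fell by 1.14 ± 0.080 (adjusted p = 0.00160), a stable call without overlap. The BMP antagonist gene Grem1 had 98.2, 112 and 71.2 in WT 1 to 3 and 46.5, 63.3 and 42.2 in transgenic 1 to 3, with the transgenic values all lower, and did not pass (adjusted p = 0.0537).

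Immediate early genes, which are switched on within minutes of a stimulus or of cell handling, were lower or did not pass. Of 23 tested 6 fell and none rose, 26.1% lower beside 5.73% lower and 3.24% higher of all genes, and the median was -0.38. Without WT 3, 11 fell and the median was -0.33. At an unadjusted p under 0.05, 11 were lower and none higher, and voom called 7 lower and none higher. The AP-1 subunit genes Jund, Jun and Fos had the lowest adjusted p of them.

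Jund, which encodes JunD, had RPKM values of 49.8, 44.0 and 37.9 in WT 1 to 3 and 18.0, 17.0 and 18.9 in transgenic 1 to 3 and fell by 1.24 ± 0.11 (adjusted p = 0.00390). Jun had 89.0, 86.7 and 100.3 in WT 1 to 3 and 47.2, 55.2 and 54.2 in transgenic 1 to 3 and fell by 0.81 ± 0.096 (adjusted p = 0.00884). Both calls were stable. Fos, their usual partner, had 55.6, 53.9 and 61.7 in WT 1 to 3 and 37.3, 37.1 and 36.7 in transgenic 1 to 3 and fell by 0.61 ± 0.075 (adjusted p = 0.00981), a call that was lost without any 1 transgenic library (adjusted p up to 0.0545). The transgenic libraries lay under the WT ones in all 3 genes. Nr4a2, Ier2 and Egr2 were lower, at -0.77 ± 0.11, -0.79 ± 0.15 and -0.80 ± 0.17. Ier2 rested on the full set, Nr4a2 lost its call without WT 2, transgenic 1 or transgenic 3, and Egr2 without WT 1, WT 2, transgenic 1 or transgenic 3 (adjusted p reaching 0.0737 to 0.136). Egr1, Myc and Dusp1 did not pass, at -0.11 ± 0.12, 0.03 ± 0.14 and 0.04 ± 0.16.

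Among WNT genes 3 of 22 fell and none rose, Sfrp4 among the former, and the median was 0.00. The share lower was 13.6%, beside 5.73% of all genes, and without WT 3, 4 rose and 5 fell. The receptor gene Fzd1 (ENSMUSG00000044674, chr5:4753839-4758035, minus strand), which ovulatory signals induce in granulosa cells, had RPKM values of 60.1, 47.2 and 39.2 in WT 1 to 3 and 13.7, 15.4 and 14.8 in transgenic 1 to 3 and fell by 1.65 ± 0.15 (adjusted p = 0.00431), a stable call. Tcf7l2, a nuclear effector of beta catenin, had 5.94, 5.46 and 5.46 in WT 1 to 3 and 2.92, 3.61 and 3.00 in transgenic 1 to 3 and fell by 0.67 ± 0.11; like that of Sfrp4, at -0.38 ± 0.089, its call rested on the full set (adjusted p reaching 0.0828 to 0.146). At an unadjusted p under 0.05, 4 WNT genes were higher, and voom called none higher.

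Extracellular matrix genes gave 3 rises and 2 falls of 23, 21.7% called beside 8.97% of all genes, and 7 rises and 7 falls without WT 3. Ctgf, a matricellular target of YAP, had RPKM values of 3.67, 3.65 and 4.98 in WT 1 to 3 and 22.2, 20.1 and 18.3 in transgenic 1 to 3 and rose by 2.06 ± 0.13 (adjusted p = 0.00123), a stable call. Fn1, fibronectin, had 55.2, 44.0 and 40.7 in WT 1 to 3 and 101, 103 and 164 in transgenic 1 to 3 and rose by 1.35 ± 0.21. Lamb2, a laminin chain, rose by 0.68 ± 0.11. The matrix glycoprotein gene Sparc had 594, 577 and 429 in WT 1 to 3 and 338, 359 and 313 in transgenic 1 to 3 and fell by 0.65 ± 0.15, and Col5a1, a fibrillar collagen chain, fell by 0.72 ± 0.14. Fn1 lost its call without WT 2, transgenic 1 or transgenic 2, Lamb2 without WT 2 or any 1 transgenic library, and Sparc and Col5a1 rested on the full set (adjusted p reaching 0.0683 to 0.152).

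Of 24 genes of glycolysis and lactate handling 1 rose and none fell (4.17% higher, near the 3.24% of all genes; 5 rose without WT 3), although 21 had positive fold changes, 14 of them at an unadjusted p under 0.05, and the median was 0.32. None was lower at that p, and voom called 2 higher and none lower. Of all 15992 genes, 8334 had positive fold changes and 2196 were higher at that p. The call was Pdk4, the kinase that shuts off pyruvate dehydrogenase, with RPKM values of 4.39, 5.32 and 4.46 in WT 1 to 3 and 8.27, 9.93 and 7.57 in transgenic 1 to 3 and a rise by 0.74 ± 0.13 on the full set (adjusted p = 0.0228; up to 0.0858 without 1 library). Slc2a1, the glucose transporter GLUT1, had 42.0, 34.9 and 30.8 in WT 1 to 3 and 56.5, 53.4 and 47.5 in transgenic 1 to 3, all transgenic values above the WT values, and did not pass at 0.54 ± 0.13 (adjusted p = 0.0516).

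Of 34 nuclear genes of oxidative phosphorylation 6 fell and 1 rose, 20.6% called beside 8.97% of all genes, with a median of -0.12. The median was -0.01 without WT 3, where 9 fell, and voom called 2 lower and none higher. Subunits of complex II moved in opposite directions. Sdha, the catalytic flavoprotein, had RPKM values of 65.4, 71.3 and 77.8 in WT 1 to 3 and 93.8, 97.0 and 96.3 in transgenic 1 to 3 and rose by 0.42 ± 0.083, while Sdhc, a membrane anchor, had 19.2, 18.9 and 25.1 in WT 1 to 3 and 12.01, 10.5 and 10.5 in transgenic 1 to 3 and fell by 0.87 ± 0.13. Uqcrq, Cox5a, Cox6c, Atp5j and Ndufa2, small subunits of complexes I, III, IV and V, were lower, at -0.45 to -0.67. Sdhc lost its call without any 1 transgenic library and Uqcrq without WT 1 or any 1 transgenic library, and the others rested on the full set (adjusted p reaching 0.0751 to 0.120).

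None of 23 fatty acid oxidation genes passed in limma, with 2 higher and 1 lower at an unadjusted p under 0.05, and voom called none. Of 28 genes of fatty acid and phospholipid synthesis 2 rose and 1 fell, 10.7% called, near the 8.97% of all genes, and 5 and 3 without WT 3. The elongase gene Elovl7 and the desaturase family gene Fads3 rose by 0.51 ± 0.10 and 0.43 ± 0.095, and the one that fell was Scd2, given above. Elovl7, Fads3 and Scd2, at -0.76, rested on the full set (adjusted p reaching 0.123 to 0.152).

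Of 44 listed ribosomal protein genes 5 rose and 10 fell, 34.1% called beside 8.97% of all genes, with a median of -0.05. Rps2 had RPKM values of 19.7, 19.8 and 19.9 in WT 1 to 3 and 36.3, 38.4 and 37.4 in transgenic 1 to 3, all transgenic values above all WT values, and rose by 0.88 ± 0.064 (adjusted p = 0.00179), while LXR DKO stood at 21.5, 21.9 and 20.1. Rplp1, an acidic stalk protein, had 83.1, 85.6 and 84.9 in WT 1 to 3 and 45.3, 38.5 and 46.2 in transgenic 1 to 3 and fell by 0.95 ± 0.088 (adjusted p = 0.00418). Both calls were stable. Rpl3 rose by 0.66 ± 0.080 and lost its call without transgenic 1 or transgenic 2 (adjusted p up to 0.0531). Ribosomal protein genes have many processed pseudogenes, and how multi-mapping reads were counted is not given in the sources used here, so their values are uncertain.

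Of the NRF2 and redox genes 1 rose and 1 fell of 26, 7.69% called, near the 8.97% of all genes, and 5 rose without WT 3. Ftl1, the light subunit of the iron store, fell by 0.64 ± 0.084, from 415 ± 26.3 (SD, n = 3) to 265 ± 2.68 RPKM, and its copies Ftl1-ps1, Ftl2-ps and Gm15590 were lower, at -0.63 to -0.66. The 4 calls were lost without any 1 transgenic library, and those of the copies also without WT 1 (adjusted p reaching 0.0633 to 0.0837). Gpx3, the secreted glutathione peroxidase, went the other way, with RPKM values of 94.5, 90.8 and 119 in WT 1 to 3 and 227, 217 and 202 in transgenic 1 to 3 and a stable rise by 1.09 ± 0.12 (adjusted p = 0.00735). In LXR DKO Gpx3 stood at 83.0, 63.1 and 61.5, under every transgenic and WT value. Other abundant genes that rose were Atxn10, at RPKM values of 372, 373 and 327 in WT 1 to 3 and 554, 577 and 507 in transgenic 1 to 3, and the damage recognition gene Ddb1, by 0.61 ± 0.10 and 0.46 ± 0.096, and the stress gene Nupr1 fell by 0.75 ± 0.16. Atxn10 and Ddb1 rested on the full set, and Nupr1 lost its call without WT 1, WT 2, transgenic 1 or transgenic 3 (adjusted p reaching 0.0901 to 0.142).

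Of 33 tested interferon response genes 2 rose and none fell, 6.06% higher beside 3.24% of all genes; 30 had positive fold changes, 11 were higher at an unadjusted p under 0.05, and the median was 0.52. None was lower at that p or by voom. Over all 15992 genes, 8334 fold changes were positive and 2196 genes were higher at that p. Besides Ifi202b the call was Irf1, a transcription factor of the interferon response, with RPKM values of 4.52, 5.58 and 6.76 in WT 1 to 3 and 9.34, 10.4 and 11.8 in transgenic 1 to 3 and a rise by 0.81 ± 0.15 on the full set (adjusted p up to 0.106). Usp18, an interferon-stimulated protease, had 1.66, 5.30 and 13.6 in WT 1 to 3 and 17.6, 19.9 and 12.4 in transgenic 1 to 3, with WT 3 above transgenic 3, and did not pass (adjusted p = 0.156). Without WT 3, 12 of these genes were called higher. None of 18 inflammatory genes passed in limma, 2 being higher and none lower at an unadjusted p under 0.05, and voom called none.

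Of 31 tested cell cycle genes 2 fell and none rose, 6.45% lower, near the 5.73% of all genes; 3 had positive fold changes, and the median was -0.29. None was higher at an unadjusted p under 0.05 or by voom. Without WT 3, 5 fell and 1 rose. Ube2c and Ccnb2, both of mitosis, were lower, at -0.78 ± 0.17 and -0.91 ± 0.21, on the full set (adjusted p reaching 0.145 to 0.154). Ccnb2, which oocytes also hold, stood at RPKM values of 20.7, 12.3 and 12.6 in WT 1 to 3 and 8.32, 6.16 and 7.84 in transgenic 1 to 3, and its highest library was WT 1, the library with the most oocyte RNA; the part of oocyte RNA was not tested. The proapoptotic gene Bax fell by 0.45 ± 0.084 among 24 genes of p53 and apoptosis, and the mitochondrial chaperonin gene Hspe1 fell by 0.45 ± 0.097 among 22 heat shock genes, both the only calls of their lists and on the full set (adjusted p reaching 0.110 to 0.132). At an unadjusted p under 0.05, 2 p53 genes and no heat shock gene were higher, and voom called none higher. Without WT 3, 3 p53 genes and 4 heat shock genes rose and 2 and 2 fell, beside 2103 rises and 1742 falls over all 15992 genes. With 6 libraries, 4.17% of the p53 genes and 4.55% of the heat shock genes were lower, near the 5.73% of all genes.

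**Figure D5:**
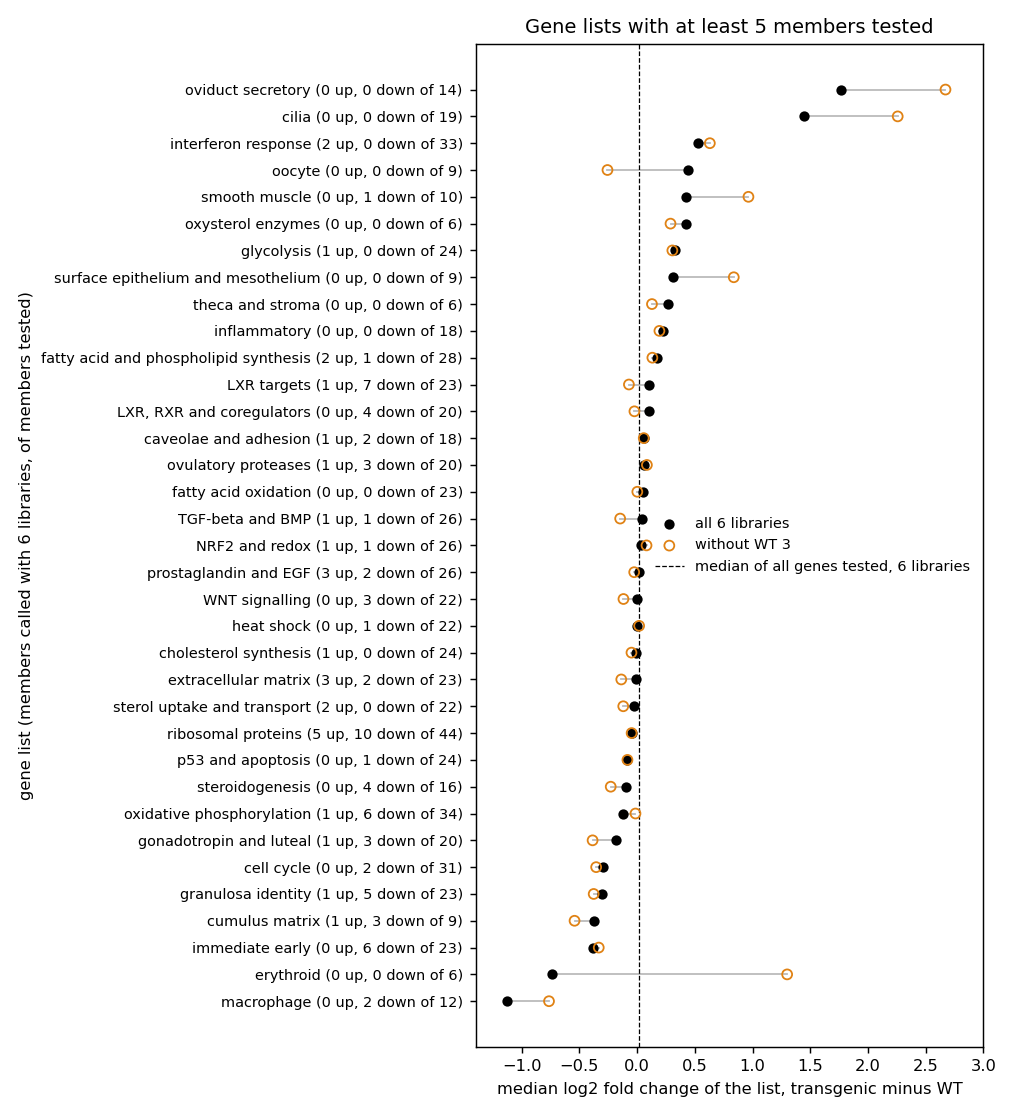
Median log2 fold change, transgenic minus WT, of each gene list with at least 5 tested members (x axis), with all 6 libraries (filled) and without WT 3 (open); labels give how many members were called with 6 libraries. Oviduct and cilia lists lie farthest to the right at 1.77 and 1.45 and move further without WT 3, and of the lists that change sign without it the red cell and oocyte lists move the most.

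Called genes lay on every autosome and on X and Y. The share of tested genes called ran from 5.83% on chromosome 16 to 11.3% on chromosome 3, beside 8.97% over all genes, leaving aside the 10 tested genes of chromosome Y. Chromosome 1 (956 tested genes) held 17 of the 118 rises of at least 1, and chromosome 18 (395) held 1. Chromosome 13 (665) held 16 of the 159 such falls, and chromosome 16 (515) held 1. Among the largest rises, Fcrlb, Itln1 and Ifi202b lie within chr1:170907273-173982744, as does Sdhc, which fell. Fam126a and AI506816 lie within chr5:23698296-24030690. These positions were looked up after the values were seen. Within 5 Mb of Nr1h2, 10 of 114 tested genes were called (8.77%), and within 5 Mb of Nr1h3, 6 of 62 (9.68%), both near the share of all genes. Those near Nr1h3 included Spi1, the myeloid transcription factor PU.1, with RPKM values of 5.77, 5.88 and 6.83 in WT 1 to 3 and 2.32, 1.90 and 3.19 in transgenic 1 to 3; it fell by 1.06 ± 0.16 and lost its call without WT 2, transgenic 1 or transgenic 2 (adjusted p up to 0.0740). Near Nr1h2 the small GTPase gene Rras rose by 0.46 ± 0.070 and the membrane protein gene Emp3 fell by 0.61 ± 0.085. Emp3 lost its call without WT 2, transgenic 2 or transgenic 3 and Rras without WT 2 or any 1 transgenic library (adjusted p reaching 0.0703 to 0.0832).

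Promoters of 300 bases, 250 before and 50 after the start, were searched on both strands for 5 motifs, as a description. The AP-1 motif TGACTCA was in the promoters of 6.96% of the 388 lower protein-coding genes matched to the RefSeq table, 3.53% of the 312 higher ones, 4.44% of the 9110 tested ones and 5.95% of all 27025 genes in the table. The nuclear receptor motif AGGTCA was in 16.2% of the lower, 12.8% of the higher and 15.1% of the tested genes, and in 18.1% of all genes. DR4, a spaced repeat that LXR and RXR bind together, was searched only as exact copies of that motif, 4 bases apart. This strict pattern was in none of the tested genes and 4 of all 27025 genes. With so few matches in the whole table, its absence from the tested genes says nothing about LXR targets. The CRE motif TGACGTCA was in 3.09% of the lower, 1.92% of the higher and 3.50% of the tested genes, and CCAAT in 39.4%, 40.7% and 43.0%. A match is not a binding site, and a missing match says only that these letters are not in this window.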

How the data were processed

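Total RNA of corona radiata cells was sequenced, and the authors deposited 1 matrix of RPKM values for 54838 genes and 9 libraries. Per the submitters' processing notes the tools included cutadapt, HISAT2 2.1.0, HTSeq 0.5.4p5 and DESeq2 1.2.8 with the build mm10; their order, the annotation release, the strand setting and the treatment of multi-mapping reads were not given in the sources used here. Values of paralogs, pseudogenes and overlapping genes are therefore uncertain. All 9 columns carry a sample (0 were left without one). Names of the transgenic columns differ from the sample descriptions by 1 letter and were matched by the transgenic prefix and the replicate number. Gene symbols are those of the deposited matrix (1233 genes had no symbol). Gene types and coordinates are those of GENCODE M21, and promoter sequences are those of RefSeq on GRCm38.p6.

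Genes with RPKM of at least 1 in 3 or more of the 6 libraries were tested on log2(RPKM + 1) with limma 3.58.1 in R 4.3.3 (genotype alone, mean-variance trend, two-sided, Benjamini-Hochberg over 15992 genes, threshold 0.05). RPKM holds no depth, but 98.1% of genes with a value gave whole reads in all libraries (within 0.02 of a read), which served for depth and for voom. Other alternatives were each library left out, the replicate block, all 9 libraries in the fit, array weights, quantile normalization, median centring, other filters and pseudocounts. The procedure was tested on simulated data.

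The comparison, gene lists and markers were chosen with earlier results of these data known. Genes named were the targeted genes and Amh, the 12 largest changes and the 8 most abundant called genes in each direction, up to 6 called members of each list in each direction by adjusted p, a set of defining genes, and called genes within 5 Mb of a receptor gene. The Cav1 neighbours, the uncalled list members given as contrasts outside the defining genes, and the genes under other observations were chosen after their values were seen. A list is described by its counts and median with no set test. Some list members are not reported here.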

Additional observations from a re-analysis of the deposited data

How the results depend on the processing

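The counts of 518 higher and 916 lower genes ran from 76 to 2103 higher and from 147 to 1742 lower when 1 library was left out. They were 1988 and 1868 with array weights, 291 and 431 with the replicate block, 210 and 394 with no filter on low values, 118 and 159 with a log2 fold change of at least 1 required, 322 and 418 over protein-coding genes only (chosen after seeing the data), and 856 higher with all 9 libraries in the fit. Voom gave 422 and 645. Other filters, pseudocounts and scalings kept both counts within 1.5 times, and in no setting was a called gene called in the opposite direction. Nr1h2 and Nr1h3 stayed lower and past the threshold wherever they were fitted, and Nr1h3 was under the stricter filter. Of 134 named called genes, 134 kept their call without WT 3 and with array weights, 85 with the replicate block, 64 with no filter and 42 to 60 without 1 of the other libraries. By voom 108 kept their call and 21 lost it, and the rest were not in that fit. Hbb-bs, which did not pass at -0.77, ran from -2.15 to 1.48 when 1 library was left out and changed sign without WT 3 (1.48, adjusted p = 0.0293) and with array weights (0.80); the WT 3 value alone makes it negative. Same-numbered libraries had correlations of -0.229, 0.238 and 0.387 in their deviations from the group means. The last was the largest of all pairs, but not every library correlated best with its own number. Deviations from a mean of 3 libraries are tied to one another, so these values cannot decide whether the numbers pair the libraries. Precision is limited by 3 libraries per group, by the spread of WT 3 and, for low genes, by depth.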

Other observations

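The genes in this section were chosen after their values were seen. Some of them are relatives of genes described above. Gramd1a, a relative of the cholesterol carrier Gramd1b, had RPKM values of 33.9, 22.4 and 27.5 in WT 1 to 3 and 87.8, 114 and 83.7 in transgenic 1 to 3. It rose by 1.74 ± 0.18 (adjusted p = 0.00563), a call that held with each library left out, whereas Gramd1c did not pass (adjusted p = 0.558). In LXR DKO Gramd1a stood at 97.7, 97.1 and 79.6 RPKM, beside its transgenic values. Gramd1b, at 7.21, 9.93 and 8.42 in LXR DKO, lay under all its transgenic values there. Amdhd1, which acts after Hal in histidine breakdown, had 0.0751, 0.0558 and 0.105 in WT 1 to 3 and 1.85, 1.30 and 1.67 in transgenic 1 to 3 and rose by 1.27 ± 0.13 (adjusted p = 0.00563), held likewise. All transgenic values of Hal and Amdhd1 were above all WT values. The 2 genes lie close together on opposite strands of chromosome 10, Hal at chr10:93488768-93519304 and Amdhd1 at chr10:93523338-93540033. Uroc1 and Ftcd, the other genes of histidine breakdown looked up, were under the filter. The thrombin receptor gene F2r had 98.0, 90.4 and 103 in WT 1 to 3 and 29.1, 34.7 and 26.4 in transgenic 1 to 3 and fell by 1.67 ± 0.11 (adjusted p = 0.00150), held likewise. The related F2rl2 fell by 1.27 ± 0.19 and lost its call without any 1 transgenic library, and Procr, the receptor of protein C, had 124, 92.8 and 77.7 in WT 1 to 3 and 39.3, 44.0 and 34.9 in transgenic 1 to 3 and fell by 1.28 ± 0.18 (adjusted p reaching 0.0701 to 0.0709 without 1 library; for Procr lost without WT 2, transgenic 1, transgenic 2 or transgenic 3).

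Of 48 tested histone genes 2 rose and 9 fell, 22.9% called beside 8.97% of all genes, with a median log2 fold change of -0.24. Without WT 3 the median was -0.08, with 6 rises and 17 falls. Hist1h1b, a linker histone gene, had RPKM values of 4.98, 5.82 and 3.92 in WT 1 to 3 and 1.10, 0.909 and 0.595 in transgenic 1 to 3 and fell by 1.66 ± 0.17 (adjusted p = 0.00563). Cers4, a ceramide synthase, had 0.448, 0.764 and 0.614 in WT 1 to 3 and 5.78, 5.44 and 5.11 in transgenic 1 to 3 and rose by 2.00 ± 0.12 (adjusted p = 0.00100), and Cyp4b1, a fatty acid hydroxylase of the P450 family, had 22.3, 22.8 and 22.1 in WT 1 to 3 and 4.75, 5.58 and 5.85 in transgenic 1 to 3 and fell by 1.88 ± 0.092 (adjusted p = 0.000453). The groups did not overlap in these 3 genes, and the calls held with each library left out. Hyou1, a chaperone of the endoplasmic reticulum, rose by 1.88 ± 0.19, and Bhlha15, a transcription factor of secretory cells, rose by 1.64 ± 0.19, and both calls held likewise. Of the myeloid genes Ncf4, an NADPH oxidase subunit, and Gpnmb, a glycoprotein of phagocytes, were lower, at -1.64 ± 0.17 and -1.48 ± 0.17, also held; the part of the macrophage markers, whose levels are given above, was not tested. Rpl29 fell by 1.79 ± 0.11, from 19.4 ± 1.43 (SD, n = 3) to 4.93 ± 0.680 RPKM, and Rpl34 fell by 1.31 ± 0.091, both calls held with each library left out.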
